A study of Tupaia belangeri with 6 samples.

Results

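The heat shock proteins and DNAJ chaperones were taken from RNA sequencing of the prefrontal cortex of the tree shrew Tupaia belangeri. Members were all annotated genes whose symbol belonged to the HSPA, HSPB, HSPD, HSPE, HSPH, HSP90, DNAJA, DNAJB or DNAJC families, and gene copies, which the annotation marks with the suffix li and a number, were kept apart from them. The rule gave 62 members of 95863 loci, of which 12 were HSPA or HSPH genes, 2 HSP90, 7 HSPB, 2 HSPD or HSPE, 4 DNAJA, 11 DNAJB and 24 DNAJC genes. They lay on 21 chromosomes and none on the X. The libraries came from 3 adult females (numbers 1, 3 and 4) and 3 adult males (numbers 1, 4 and 5), taken from a laboratory colony, with no treatment named in the labels and 1 library of bulk cortex per animal. The study's sample overview lists every male as older than every female, so sex and age cannot be told apart. Levels are in TPM, transcript abundances scaled within each library, which are per transcript length, and comparisons between genes hold only as far as the estimate for each locus, which is set beside a second scale further on. The files used here hold a mean coverage per base of each locus but no read counts, so the number of reads behind a value is not given.

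Heat shock proteins are molecular chaperones that bind unfolded stretches of other proteins. HSP70 proteins (HSPA) hold a client through cycles of ATP binding and hydrolysis, J-domain proteins (DNAJ) deliver clients and trigger the hydrolysis, and HSP110 proteins (HSPA4, HSPH1) act as nucleotide exchange factors that release the client. HSP90 proteins finish the folding of kinases and steroid receptors, small heat shock proteins (HSPB) hold clients without ATP, and HSPD1 with its lid HSPE1 forms the folding chamber of mitochondria. Some of these genes are transcribed in every cell at rest, and others are raised by the heat shock factor HSF1 when proteins unfold in the cytosol, or by the unfolded protein response when they unfold in the endoplasmic reticulum. Neurons, which do not divide and have long processes, express many of the constitutive chaperones highly.

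Of the 62 members, 48 were above 0 TPM in all 6 libraries and 8 were listed at 0 in every library (HSP90AA1, HSP90B1, DNAJA1, DNAJB6, DNAJB3, DNAJB7, DNAJB8 and HSPB9). HSPA6, HSPA8, HSPB3, HSPB7, DNAJB4 and DNAJC5G were above 0 in only some of the libraries. The mean over the 6 libraries was at least 1 TPM for 48 members, at least 10 TPM for 40, at least 50 TPM for 25 and at least 100 TPM for 14. The presence of HSPA8, HSP90AA1 and HSP90B1, which are among the most abundant chaperones of mammalian cells, at or near 0 led to a check of where the rows with these symbols lie.

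For each member, up to 4 named protein-coding genes on either side were taken from RefSeq (assembly TupChi_1.0, used only for which genes neighbour each other) and looked for within 1000000 bp of the locus in the study's annotation of genome TS_3.0. Of the 57 members with 3 or more such neighbours, 50 shared at least 1 of them. The other 7 shared none, namely HSP90AA1, HSP90B1, HSPA8, HSPA9, DNAJA1, DNAJB4 and DNAJB6. In each of these 7 cases a copy locus of the same symbol shared at least 3 of the RefSeq neighbours. It also had the highest mean TPM among the loci of that symbol. HSP90AA1, the inducible cytosolic HSP90, was at 0 TPM in every library on its plain row, which spans 659 bp. Its copy HSP90AA1li9 (chr4:62986928-63073239, minus strand, 86312 bp) shared 3 of 5 neighbours, PPP2R5C, DYNC1H1 and WDR20, and had 805, 1359 and 1008 TPM in females 1, 3 and 4 and 972, 538 and 904 TPM in males 1, 4 and 5. In TPM it was the highest of all loci that carry a symbol of the rule, copies included. HSPA8, the constitutive HSP70 that also uncoats clathrin vesicles, had 0, 0 and 0.940 TPM in the females and 2.79, 0.795 and 0.707 TPM in the males on its plain row. HSPA8li1 (chr9:9807938-9821169, plus strand) shared 5 of 8 neighbours, UBASH3B, CRTAM, BSX, CLMP and ZNF202, and had 702, 640 and 481 TPM in the females and 789, 560 and 733 TPM in the males. The same held for DNAJB6li1 (309 TPM on average, 6 of 8 neighbours), HSP90B1li3 (169 TPM, 6 of 8), DNAJB4li2 (58.8 TPM, 7 of 7), HSPA9li1 (58.1 TPM, 5 of 6) and DNAJA1li14 (50.3 TPM, 6 of 8). For DNAJA1 the copy at this position held 50.8% of the TPM of the symbol and 31 other copies held the rest, whereas for the other 6 symbols it held at least 96.8%. The rows of these 7 symbols therefore do not give the level of the gene at the RefSeq position, and both rows are given from here on, with "by position" naming the values in which the copy at the RefSeq position stands in for the plain row.

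**Figure D1:**
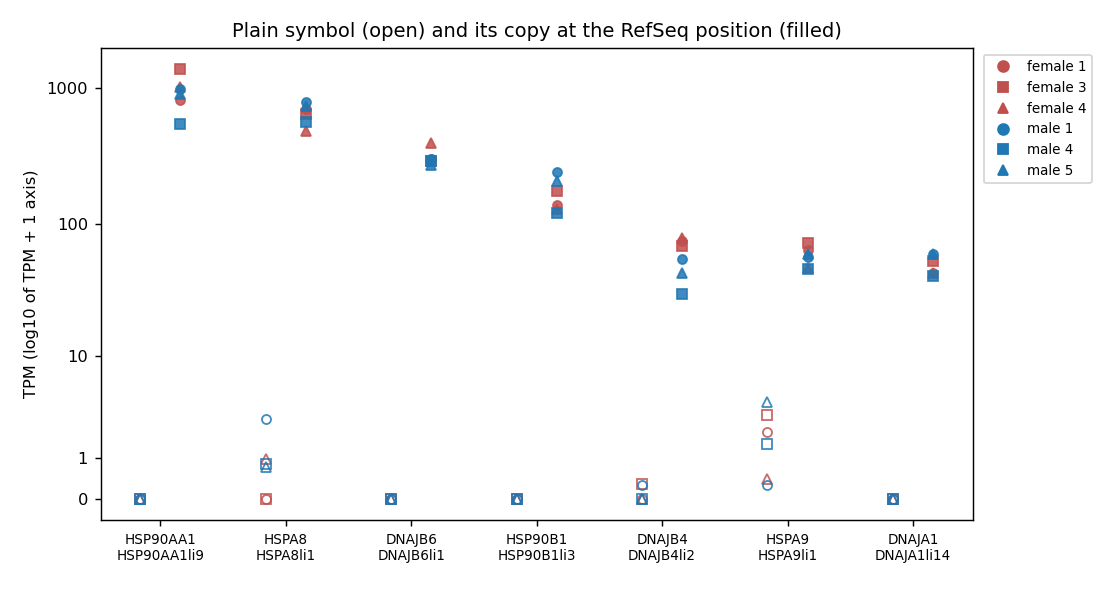
TPM (axis of log10 of TPM + 1) of 7 symbols in 6 libraries. Open markers are the plain row and filled markers the copy at the RefSeq position. Red markers are females and blue markers males. All open markers lie at or below 4.11 TPM and all filled markers at or above 30.0 TPM.

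In all, 96 copy loci carried a symbol of a member or of the rule with the suffix li, 55 of them at 0 in every library, and copies held 41.3% of the summed TPM of members and copies. The 7 copies by position made up 76.2% of that. HSP90AB1, the constitutive cytosolic HSP90, had no plain row, and its best expressed copy, HSP90AB1li8, reached 10.7 TPM. At the place where RefSeq has HSP90AB1 lay an assembled locus without a symbol (chr3:114959876-115060389, minus strand, 100514 bp). It had 3033, 3228 and 2987 TPM in females 1, 3 and 4 and 2896, 2692 and 2597 TPM in males 1, 4 and 5. The gap between the neighbours SLC29A1 and SLC35B2 was 22262 bp, so the locus reaches beyond it. Whether its TPM holds reads of a neighbour was not tested. As the annotation gives this locus no symbol, it is described as an unnamed locus and not as a value of HSP90AB1. The gap between PPP2R1B and DLAT, where RefSeq has HSPB2, was 137019 bp. A second unnamed locus there, of 61634 bp, had 80.4 TPM on average, with 125 TPM in male 1 and 29.2 TPM in male 5. Its position alone does not assign it to HSPB2. HSPA1, the main inducible HSP70, has a plain row (chr3:131340617-131375369, minus strand) that encloses its copy HSPA1li1 (chr3:131348437-131350896, minus strand), and both overlap HSPA1L on the opposite strand. The split of reads among these 3 loci is uncertain.

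By position, the inducible chaperones of the cytosol ranged from HSPA6, near 0, to HSP90AA1li9, with a mean of 931 TPM. DNAJA4, a J-domain protein of the DNAJA type and the next in TPM after HSP90AA1li9, had 272, 291 and 310 TPM in the females and 284, 364 and 343 TPM in the males. HSPH1, the inducible HSP110, had 187, 266 and 182 TPM in females 1, 3 and 4 and 328, 213 and 335 TPM in males 1, 4 and 5. Female 3 and males 1 and 5 were thus the high libraries for HSPH1, and the sexes overlapped. HSPA1li1 had 186, 187 and 162 TPM in the females and 146, 138 and 112 TPM in the males, and the enclosing HSPA1 row had 95.0, 64.6 and 108 TPM in the females and 74.0, 84.5 and 32.6 TPM in the males. DNAJB1, the main partner of inducible HSP70, had 78.2, 63.5 and 69.6 TPM in the females and 61.3, 53.0 and 25.3 TPM in the males. Male 5 was the lowest library for HSPA1, HSPA1li1 and DNAJB1, and it was the highest for the small heat shock protein HSPB1 (249 TPM) and for HSPH1. DNAJB4li2 and DNAJA1li14 averaged 58.8 ± 19.5 and 50.3 ± 8.58 TPM (SD, n = 6). HSPA6, an HSP70 gene known as strictly inducible, was between 0 and 2.77 TPM.

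Of the constitutive cytosolic chaperones, DNAJB6li1, at the position of a J-domain protein that keeps polyglutamine proteins from aggregating, had 301, 291 and 395 TPM in the females and 302, 292 and 271 TPM in the males. DNAJA2 averaged 118 ± 17.8 TPM and DNAJC7, a J-domain protein that binds both HSP70 and HSP90, 87.8 ± 10.03 TPM (SD, n = 6). HSPA4, the constitutive HSP110, had 56.1 TPM in female 4 and up to 100.3 TPM in female 3. HSPA14, an HSP70 of the ribosome, was lower at 10.4 ± 3.76 TPM. Of these 5 loci and HSPA8li1, 4 were highest in male 1.

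Within a family, the inducible gene was not always the lower of the pair. The summed TPM of HSPA1 and HSPA1li1 was 0.197 to 0.561 times that of HSPA8li1 and lower in all 6 libraries, with the lowest ratio in male 5 and the highest in female 4. DNAJB1 was at 0.0936 to 0.259 times and DNAJB4li2 at 0.103 to 0.251 times the TPM of DNAJB6li1, and DNAJA1li14 at 0.387 to 0.477 times that of DNAJA2. HSPH1, by contrast, was at 2.52 to 4.02 times the TPM of HSPA4 and DNAJA4 at 1.93 to 3.78 times that of DNAJA2, each higher in all 6 libraries. HSP90AA1li9 was at 0.200 to 0.421 times the TPM of the unnamed locus at the place of HSP90AB1. In the endoplasmic reticulum, the stress-induced HSPA5 was at 4.16 to 7.20 times the TPM of HSPA13. The side of 1 on which each ratio lay was the same on the scale of coverage described further on, but the size of several was not.

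**Figure D2:**
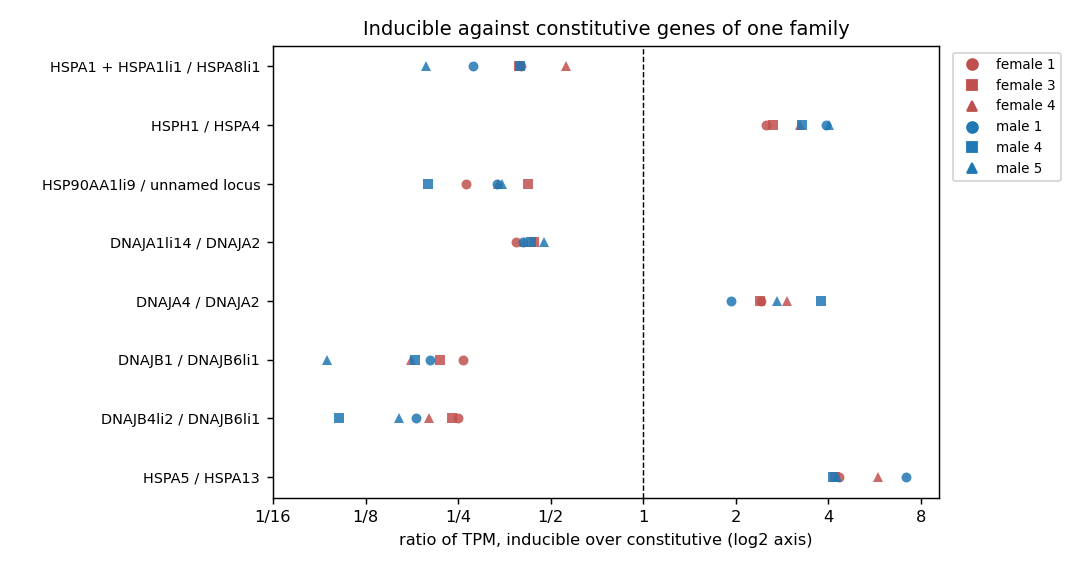
Ratio of the TPM of an inducible gene to that of a constitutive gene of the same family (log2 axis, broken line at 1) in each of 6 libraries; red markers are females and blue markers males. HSPH1, DNAJA4 and HSPA5 lie above 1 in all 6 libraries, and the other 5 ratios lie below 1 in all 6.

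Summed over the lists, the balance of inducible to constitutive cytosolic chaperones depended on which rows were read. The plain rows of the 9 listed inducible genes summed to 744, 753 and 746 TPM in females 1, 3 and 4 and to 863, 839 and 985 TPM in males 1, 4 and 5, and those of the 6 listed constitutive genes to 287, 322 and 250 TPM and to 352, 242 and 312 TPM. The ratio of inducible to constitutive TPM was then 2.34 to 3.46. By position, with HSPA1li1 added, the inducible sum was 1854, 2421 and 2039 TPM in the females and 2096, 1585 and 2105 TPM in the males, the constitutive sum 1290, 1252 and 1125 TPM and 1440, 1094 and 1315 TPM, and the ratio 1.44 to 1.93. The plain inducible sums of the sexes did not overlap, with the males higher, whereas the sums by position overlapped. With the unnamed locus at the place of HSP90AB1 counted as constitutive, the ratio fell below 1 in every library, to between 0.419 and 0.540. HSPA4L, DNAJB12 and DNAJB14 had no row under their own symbol and are in none of these sums.

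**Figure D3:**
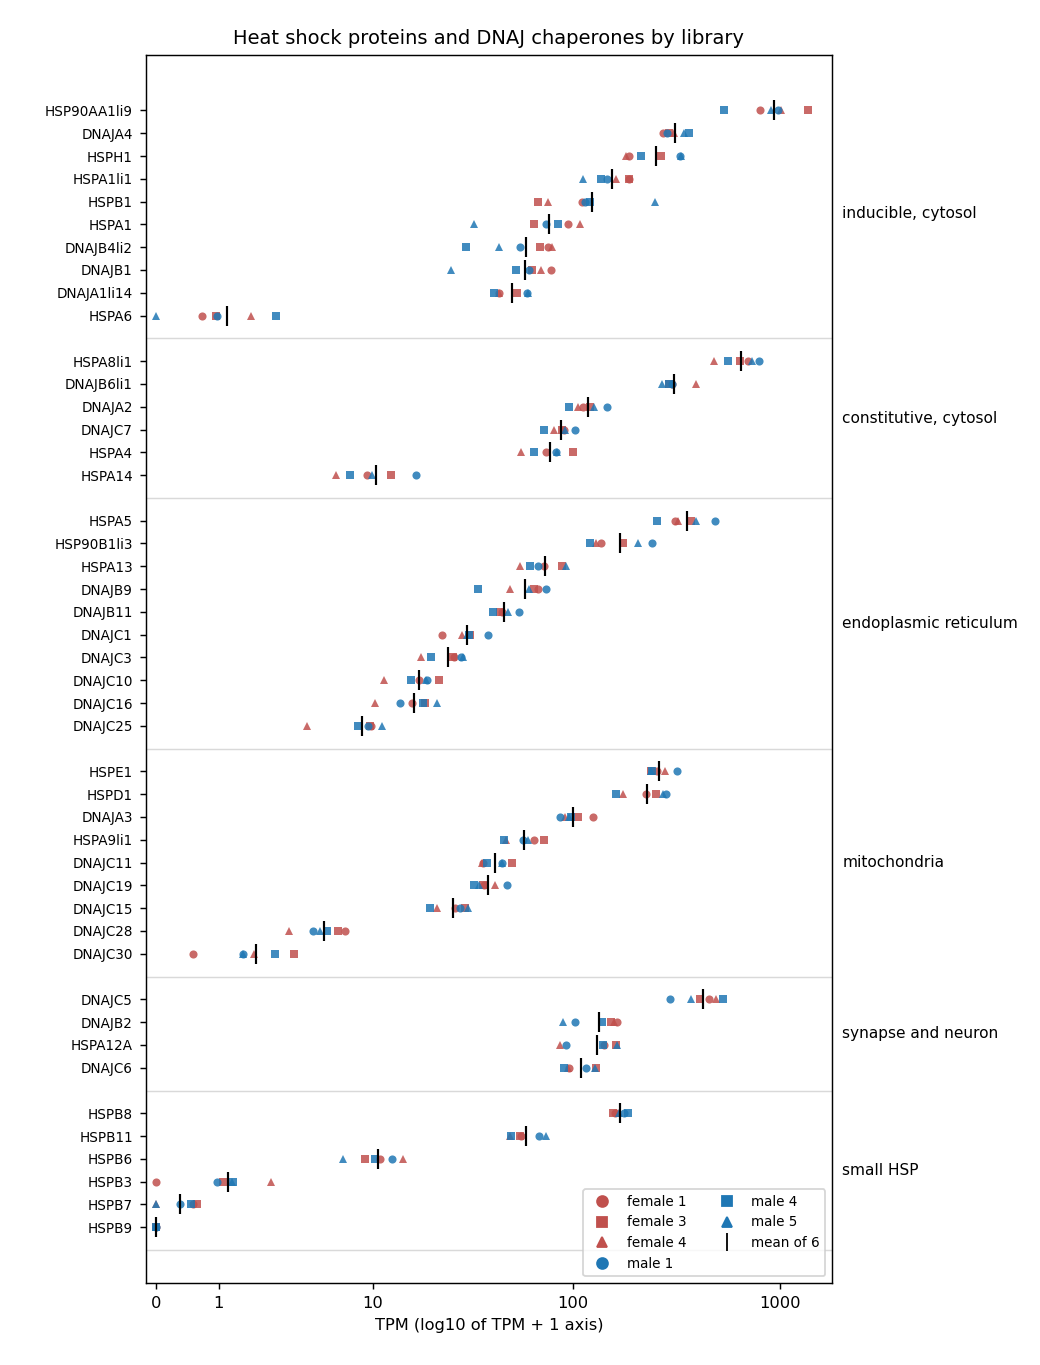
TPM (axis of log10 of TPM + 1) of the chaperones of 6 roles in 6 libraries, by position for the 7 symbols whose plain row lay elsewhere; each marker is 1 library and the black bar the mean of 6. HSP90AA1li9 and HSPA8li1 have the highest means, 931 and 651 TPM, and HSPA6, HSPB3, HSPB7 and HSPB9 lie near 0.

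The tables also hold the mean coverage per base of each locus, which gave a second reading of the same reads. Where a locus had more than 1 row, TPM was summed and the highest coverage was taken, which raises TPM over coverage there. Coverage was multiplied by each library's median of TPM over coverage (11330 loci with at least 5 TPM), so that a typical locus has the same value on both scales. HSPA5, HSP90B1li3, HSPB1, HSPA1li1 and HSPA9li1 had 0.662 to 0.674 times as much TPM as scaled coverage in every library. HSP90AA1li9 had 4.13 to 7.01 times as much, DNAJB6li1 4.09 to 5.62 times, DNAJC14 4.03 to 6.35 times and HSPB11 11.3 to 14.5 times. On the coverage scale HSP90AA1li9 was at 166, 208 and 144 in females 1, 3 and 4 and at 235, 129 and 202 in males 1, 4 and 5, a mean of 181 in place of 931, and male 1 replaced female 3 as its highest library. HSPA8li1 kept a high level on both scales, with a mean of 868 by scaled coverage, and the unnamed locus at the place of HSP90AB1 had a mean of 3799. The order of the genes changed as well. HSPH1 had a scaled mean of 354 and DNAJA4 321, the reverse of their order in TPM. Of the family ratios, that of HSP90AA1li9 to the unnamed locus was 0.0386 to 0.0569 by scaled coverage, lower than in TPM in every library. Those of DNAJB1 (0.258 to 0.708) and DNAJB4li2 (0.537 to 0.881) to DNAJB6li1 were higher than in TPM, as were those of HSPA5 to HSPA13 (8.21 to 14.4) and DNAJA1li14 to DNAJA2 (0.564 to 0.705). The ratio of the inducible to the constitutive sum was 1.13 to 1.42 on this scale, by position. The quotient of the scales differed by under 1.2 times between libraries at 27 of the 50 loci by position with at least 5 TPM and by over 1.5 times at 8 of them, and the highest library was the same on both scales at 41 of 50. Levels of the loci with high quotients, and their order among the other genes, are therefore less certain than those of HSPA8li1, HSPA5, HSPH1 or HSPB1, and the cause was not tested.

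**Figure D4:**
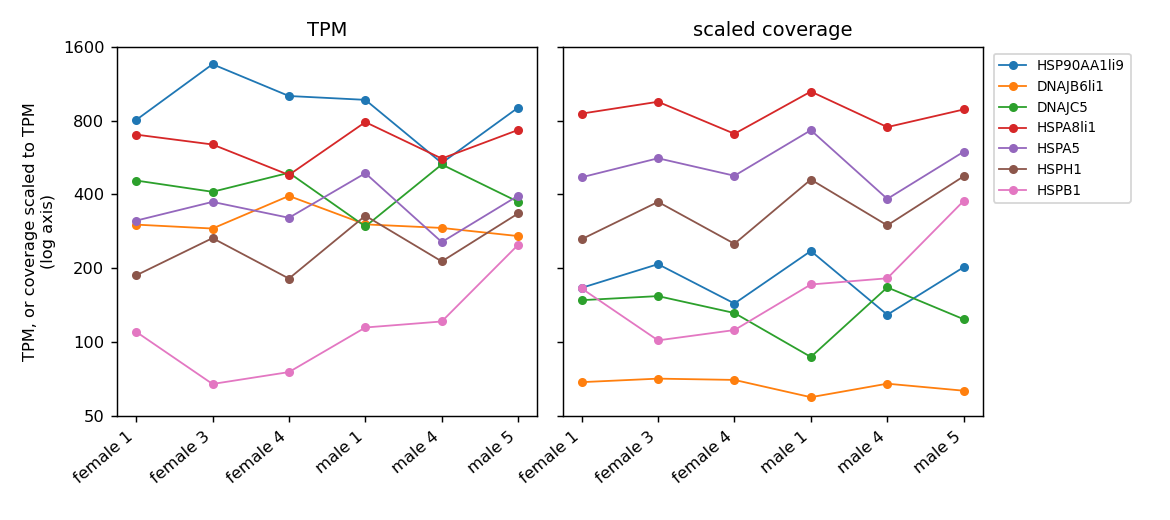
TPM (left) and coverage per base scaled to TPM (right) of 7 loci in 6 libraries, on a log axis; each line joins the values of 1 locus. HSP90AA1li9 has a mean of 931 on the TPM scale and 181 on the coverage scale, and HSPB1 is highest in male 5 on both.

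The chaperones of the endoplasmic reticulum were led by HSPA5 (BiP), the HSP70 of that compartment and the sensor partner of the unfolded protein response. HSPA5 (chr2:86173936-86178684, minus strand), which overlaps no other locus, had 313, 373 and 321 TPM in females 1, 3 and 4 and 488, 256 and 396 TPM in males 1, 4 and 5. HSP90B1li3, at the position of the endoplasmic HSP90, had 137, 175 and 130 TPM in the females and 242, 122 and 206 TPM in the males. Both were highest in male 1 and lowest in male 4. DNAJB9 (58.6 ± 14.5 TPM), DNAJB11 (46.3 ± 4.72 TPM), DNAJC3 (24.5 ± 4.57 TPM) and DNAJC10 (17.4 ± 3.57 TPM; SD, n = 6 each), the J-domain proteins that serve HSPA5, were lower. Of these 6 genes induced by the unfolded protein response, 4 were highest in male 1 and 4 were lowest in male 4. Their sum by position was 606, 705 and 574 TPM in the females and 907, 488 and 759 TPM in the males, so that the males spanned the whole range of the females.

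Of the mitochondrial chaperones, HSPD1 and HSPE1, whose genes lie head to head on chromosome 1, were at similar levels in TPM but not by scaled coverage. HSPE1 had 255, 238 and 278 TPM in females 1, 3 and 4 and 319, 241 and 238 TPM in males 1, 4 and 5, and HSPD1 had 225, 251 and 176 TPM and 283, 162 and 273 TPM. A copy of HSPD1 on chromosome 6, HSPD1li10, was at 309 ± 23.2 TPM and shared none of its RefSeq neighbours. By scaled coverage the means were 314 for HSPD1, 175 for HSPD1li10 and 112 for HSPE1, so that HSPD1li10 lay above HSPD1 in mean TPM and below it in every library by scaled coverage. DNAJA3, a J-domain partner of mitochondrial HSP70, had 100.4 ± 13.9 TPM, and HSPA9li1, at the position of mitochondrial HSP70, 58.1 ± 10.2 TPM (SD, n = 6).

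DNAJC5 (cysteine string protein), which guards SNARE proteins on synaptic vesicles, was the highest of the 62 plain rows in TPM but not by scaled coverage, where its mean was 135 against 537 for HSPA5 and 354 for HSPH1. In TPM it had 456, 410 and 490 TPM in females 1, 3 and 4 and 296, 530 and 373 TPM in males 1, 4 and 5. DNAJC6 (auxilin), the partner of HSPA8 in uncoating clathrin vesicles, had 95.6, 129 and 94.9 TPM in the females and 116, 90.8 and 127 TPM in the males. Male 4 was the highest library for DNAJC5 on both scales, and the lowest for DNAJC6 in TPM, whereas by scaled coverage female 4 (81.4) was below male 4 (88.9) for DNAJC6. HSPA12A, a distant HSP70 relative enriched in brain, had 86.7 TPM in female 4, 92.7 TPM in male 1 and between 140 and 163 TPM in the other 4 libraries. DNAJB5, a relative of DNAJB1, had 149 TPM in female 4, 173 TPM in male 1 and 251 to 348 TPM in the other 4. In TPM, female 4 and male 1 were thus the low libraries for both. By scaled coverage this held for DNAJB5 but not for HSPA12A, for which male 1 (54.8) lay beside female 1 (54.8) and above male 4 (53.1).

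Among the small heat shock proteins, HSPB8, which works with the co-chaperone BAG3 in selective autophagy, was the steadiest of all members with at least 5 TPM. It had 161, 156 and 166 TPM in the females and 178, 184 and 167 TPM in the males, a coefficient of variation of 6.29%. HSPB1 (HSP27), a small heat shock protein under HSF1 that binds actin, had a coefficient of variation of 53.3%, which was 25.1% without male 5. It had 110, 67.5 and 75.5 TPM in females 1, 3 and 4 and 115, 121 and 249 TPM in males 1, 4 and 5. HSPB6 averaged 10.7 ± 2.61 TPM (SD, n = 6) and HSPB3, HSPB7 and HSPB9 at most 1.22 TPM. The members with the smallest spread after HSPB8 were DNAJB11 (10.2%), DNAJC27 (10.7%), DNAJC7 (11.4%) and DNAJA4 (11.6%), and those with the largest were HSPA12B (53.8%), HSPB1, HSPA14 (36.1%), HSPA1 (34.4%, and 20.0% without male 5) and HSPA1L (31.3%). Without male 1, DNAJB11 was at 5.80%, below HSPB8 at 6.45%. The median coefficient of variation was 20.5% over the 43 members with at least 5 TPM, against 23.2% over all 11330 loci at that level.

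Of 8 members known mainly from testis, HSPB9, DNAJB3, DNAJB7 and DNAJB8 were at 0 in every library, and DNAJC5B, DNAJC5G and DNAJB13 averaged 0.373, 0.319 and 0.0718 TPM. The remaining one, HSPA1L, had 64.9 ± 20.3 TPM (SD, n = 6), and it overlaps HSPA1 and HSPA1li1 on the opposite strand. DNAJB13li1, a copy that overlaps DNAJB13 on the opposite strand, had 103 ± 27.1 TPM. As the sources used here do not state a strand-specific library, reads of overlapping genes on opposite strands cannot be told apart, and this touches the 52 members that overlap a locus on the other strand.

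Libraries that were highest together differed from gene to gene. Of the 50 loci by position with at least 5 TPM, 12 had female 3, male 1 and male 5 as their 3 highest libraries, which is 24.0% against 11.02% of the 11330 loci at that level. They were HSPA5, HSPH1, HSPD1, HSP90B1li3, DNAJA2, DNAJC6, HSPA4, DNAJA1li14, DNAJC11, DNAJC15, DNAJC10 and HSPA14. Another 7 loci had female 1, male 1 and male 5 highest, HSPA8li1, DNAJC7, HSPB11, DNAJB11, DNAJC3, DNAJC24 and DNAJC2, an order found at 3.21% of all loci at that level. Male 4 was the lowest library at 17 of the 50 loci (34.0%), against 14.3% of all loci at that level. These shares describe 6 libraries and were not tested. The share of TPM in assembled loci without a strand was 5.16% in male 1 and 7.88% in male 5 against 2.30% to 3.33% in the other 4, and the summed TPM of 6 neuron markers above 0 in every library, led by SNAP25, was 7544 to 8275 in female 3, male 1 and male 5 and 6290 to 7256 in the others. SNAP25 was the largest part of that sum in every library. SYT1 was also higher in female 3, male 1 and male 5 (951 TPM or more) than in the others (at most 883). SLC17A7, a marker of excitatory neurons, did not follow this order, with its lowest TPM in male 1 (783) and its highest in male 4 (1569). Nor did GAD1, lowest in male 1 (107), GAD2, with 16.1 in male 1 and 59.3 in male 4, or STMN2, with 797 in female 1 and 770 in male 5. Their part in this order was not tested.

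The comparison of females with males asked whether chaperone transcripts differed between the sexes. A linear model (limma with a mean-variance trend) was fitted to log2(TPM + 1) of the 30238 loci that reached 0.1 TPM in no fewer than 3 animals. None of the 52 members that passed this filter had an adjusted p (Benjamini-Hochberg) under 0.1, as against 5 of all loci tested (0.0165%), and the smallest adjusted p of a member was 0.926. At an unadjusted p under 0.05 there were 2 members higher in females, DNAJB2 and HSPA12B, against 2.45% of all loci, and 1 member higher in males, HSPB1, against 2.58%. By position the counts were 3 and 1 of 57. The median difference, female minus male, was -0.04 on the log2 scale over the 52 members and -0.03 over all loci tested.

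Values of the 3 females and 3 males did not overlap for 4 members with females higher and 2 members with males higher, of 52, against 4.92% and 4.93% of all loci tested. HSPB1 averaged 161.9 ± 75.9 TPM in males and 84.4 ± 22.7 TPM in females, a difference of -0.87 ± 0.32 (log2, SE) with an adjusted p of 0.926 in limma, with 249 TPM in male 5 against 115 and 121 TPM in the other males. Without male 5 none of the 52 members had an unadjusted p under 0.05. HSPB8 differed less, at 176 ± 8.84 TPM in males and 161 ± 4.90 TPM in females. DNAJB2, a J-domain protein of neurons whose loss causes motor neuropathy, had 163, 153 and 158 TPM in the females and 102, 139 and 89.7 TPM in the males, a difference of 0.54 ± 0.19 (log2, SE; adjusted p = 0.926, limma). HSPA12B, an HSP70 relative of endothelium, had 8.91, 7.37 and 6.75 TPM in the females and 1.31, 5.95 and 2.53 TPM in the males, and a difference of 1.17 ± 0.49 (log2, SE). DNAJB1 (0.67 ± 0.31) and DNAJC12 (0.46 ± 0.30) were the other members with every female above every male. DNAJB1 fell to 0.29 without male 5 and to 0.18 with the share of TPM in loci without a strand as a covariate, and DNAJC12 fell to 0.19 without male 4. The difference of HSPB1 was -0.51 without male 5 and -0.42 with that covariate, and those of DNAJB2 and HSPA12B with it were 0.25 and 0.70. With 3 animals against 3 an exact two-sided permutation test cannot go below p = 0.1, the value that groups without overlap always give, so it adds nothing to the choice of these 6 genes. By scaled coverage the sexes did not overlap for these 6 genes either, but for 5 of them TPM over scaled coverage differed by at most 1.09 times between libraries (1.24 times for HSPA12B), so this is no independent check.

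Of the 28 copies that passed the filter, the sexes did not overlap for 2 with females higher (7.14%, against 4.92% of all loci) and for 3 with males higher (10.7%, against 4.93%). The latter were DNAJA1li2, HSP90AA1li4 and DNAJA1li27, named after their values were seen, each at a mean of at most 5.03 TPM. HSPA1li1 (0.44 ± 0.18) and DNAJB4li2 (0.83 ± 0.23; log2, SE) were higher in every female than in any male, each with an adjusted p of 0.926 in limma. DNAJB4li2 had 75.5, 69.3 and 79.4 TPM in the females and 55.1, 30.0 and 43.4 TPM in the males. By scaled coverage the females were at 50.8, 59.8 and 49.1 and the males at 52.5, 36.3 and 46.0, so the sexes overlapped and the difference was 0.25 ± 0.17. For HSPA1li1 the 2 scales are near multiples of each other, so coverage is no second check.

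**Figure D5:**
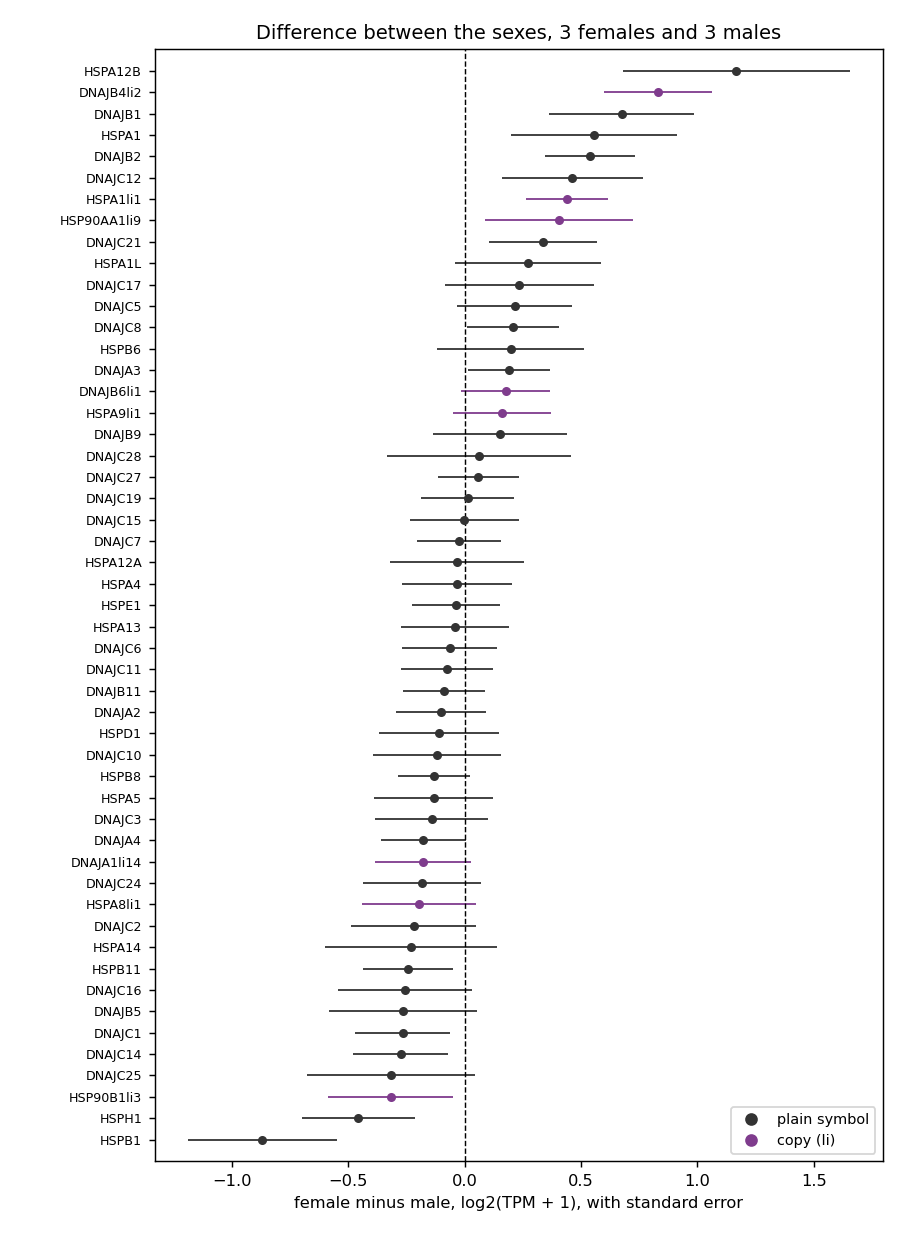
Female minus male difference of log2(TPM + 1) with its standard error (limma, 3 females and 3 males) for the members with at least 5 TPM on average and 8 copies. HSPA12B (1.17) and HSPB1 (-0.87) lie farthest apart, and no member passed an adjusted p of 0.1.

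Other cell types and blood also differed between the animals. The summed TPM of 4 listed red blood cell genes lay between 1275 and 2542 in females, as against 62.7 to 101 in males, led by HBQ1 and HBG, with SLC4A1 at 0 in 4 of the 6 libraries. The 3 listed oligodendrocyte genes ranged from 348 to 482 TPM over females, and from 80.7 to 236 TPM over males. The 4 ependyma markers had low sums, of 18.4 to 22.5 TPM (females) and 11.9 to 17.2 TPM (males), and AQP1, a choroid plexus marker, was at 4.27 to 5.05 TPM in females as against 1.73 to 2.04 TPM in males. The 5 endothelium markers had sums of 434 to 503 TPM (females), or 397 to 607 TPM (males), with the highest sum in male 5. The 5 did not move together. CLDN5 (33.5 to 60.7 TPM in females, at most 28.9 TPM in males) and FLT1 (27.1 to 31.7 TPM, at most 26.8 TPM) were higher in every female than in any male, VWF overlapped between the sexes, and PECAM1, the largest part of the sum, and SLC2A1 overlapped too, with the higher means in males (339 against 292 TPM and 102 against 93.5 TPM). The 9 listed immediate early genes, which respond to activity and handling, had sums of 261 to 590 TPM (females), or 177 to 379 TPM (males), with the lowest sum in male 5. The part of these in the differences of HSPB1, HSPA12B, DNAJB1 and DNAJB2 was not tested. In bulk cortex, fewer cells of a type and less RNA per cell cannot be told apart.

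Of 35 co-chaperones and regulators of the same pathway, 30 had a row and 23 were above 0 in all 6 libraries. The other 7, among them STIP1, which links HSP70 to HSP90, and AHSA1, which activates the ATPase of HSP90, were at 0 in every library on their plain rows, as HSP90AA1 was. The highest were STUB1 (CHIP), the ubiquitin ligase of the chaperones, at 458 TPM, and CDC37, the kinase adaptor of HSP90, at 420 TPM. HSPBP1 and HYOU1, nucleotide exchange factors of cytosolic and endoplasmic HSP70, averaged 170 and 128 TPM. HSF1 had 77.7, 72.5 and 115 TPM in females 1, 3 and 4 and 55.7, 87.7 and 86.8 TPM in males 1, 4 and 5, so female 4 was its highest and male 1 its lowest library. Of these 23, the mean was on the female side for 14 and on the male side for 9, with a median difference of 0.06 on the log2 scale. None had an adjusted p under 0.1 or an unadjusted p under 0.05 in limma.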

How the data were processed

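Poly(A) RNA of prefrontal cortex from 6 tree shrews was sequenced as paired reads, 1 library per animal. Per the study's methods and the submitters' processing notes, the authors mapped the reads to genome TS_3.0 with HISAT2 2.2.1, assembled transcripts per animal with StringTie 2.2.1, merged them with the reference annotation and estimated abundance on the merged set. The deposited tables give TPM per locus, scaled by the authors' tool within each library, with sums of 950532 to 971492 over the rows of a table, and the coverage, which the authors' pipeline gives as mean reads per base; both were used here, and FPKM was not. The files used here hold no counts, so the authors' DESeq2 test was not repeated.

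TPM was summed over rows of a gene ID and chromosome, and the highest coverage of those rows was taken. Differences were tested with limma 3.58.1 (R 4.3.3) on log2(TPM + 1) over all loci with at least 0.1 TPM in 3 animals, with Benjamini-Hochberg adjustment and a threshold of 0.1. As in the study, 2 segments that only males carry (X and chromosome 26) were left out. The script was tested on simulated data. Tables were made with Python 3.11.15 (pandas 2.3.3, numpy 2.4.6, scipy 1.17.1), figures with matplotlib 3.10.9. Nothing states more than 1 library per animal, and p-values measure the spread between these animals. Named genes were the members of the inducible, constitutive, unfolded protein response, synaptic and small heat shock protein lists, the 3 highest of each family, the 8 smallest p-values, the 5 highest and 5 lowest coefficients of variation, and copies over 5 TPM; HSP90AB1's unnamed locus, the copies by position and the genes that share a library order were named after their values were seen. Coefficients of variation without a library were added after seeing the data. Members and lists were chosen with earlier results of these data known.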

Additional observations from a re-analysis of the deposited data

How the results depend on the processing

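No member passed an adjusted p of 0.1 under any of the alternatives run, which were median-ratio and quantile scaling, pseudocounts of 0.1 and 0.01, no filter or 1 TPM, limma without trend, stranded loci alone, adjustment within autosomes and X, a replicate block, the strandless share as covariate, copies summed, loci by position, scaled coverage and each animal left out. The count at an unadjusted p under 0.05, 3 as reported, was 1 without trend, 0 with the covariate and 0 to 5 with 1 animal left out (0 without male 5, 1 without female 1 and 5 without male 4). Animal numbers 1 and 4 occur in both sexes without stated meaning, and same-numbered animals did not deviate together (r = -0.005 and 0.04 across genes). With them as replicate block no member had an unadjusted p under 0.05. HSPA1 (0.56) turned to -0.035 (log2) with the covariate. The median difference of the inducible list (-0.03) was -0.24 to 0.24 with 1 animal left out, the highest without male 4.

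Loci by position and scaled coverage were added after seeing the data. The mean inducible sum of 822 TPM became 2017 by position, 1484 by position in scaled coverage and 2073 with all copies, the constitutive sum of 294 TPM became 1253, 1188 and 1254, and 4158 with the unnamed locus added, and their ratio of 2.83 became 1.61, 1.26, 1.66 and, with the unnamed locus, 0.484. The endoplasmic reticulum sum of 633 TPM became 802, 1064 and 808, and its stress-induced genes went from 505 to 673, 944 and 673. The mitochondrial sum of 706 TPM became 1092 with all copies, the synaptic sum of 799.8 TPM became 341 in scaled coverage, and the testis sum of 65.7 TPM became 27.1 in scaled coverage and 169 with all copies. TPM keeps no depth, and counting error was not estimated from the coverage per base. Levels that rest on the assembled transcripts of a locus have no check beyond the coverage column.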
